A study of Mus musculus with 4 samples.

Results

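The genes described here encode the chains of the smooth muscle and nonmuscle myosins II, 8 genes taken by symbol from a table of 39179 genes. They are 4 heavy chains (Myh11, Myh9, Myh10 and Myh14), 3 regulatory light chains (Myl9, Myl12a and Myl12b) and 1 essential light chain (Myl6). The labels describe the samples as primary aortic smooth muscle cells of mice, and their titles name the aorta. Total RNA was sequenced in 2 libraries of the genotype Yap/Taz-KO (from mice named Sm-Yap/Taz-KO, and called KO here) and 2 libraries of the genotype WT. The labels place both groups 18 days after tamoxifen. YAP and TAZ are co-activators of transcription at the end of the Hippo pathway. The labels do not name the promoter that drives the recombinase, whether WT mice carried it, the age or sex of the mice, or whether animals were pooled. Nor do they state that replicate libraries come from different animals; the p-values then read only the variation among these 4 libraries, which may be technical.

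Myosin II is the motor that pulls on actin filaments. A pair of heavy chains coil around each other, and each head binds an essential and a regulatory light chain; phosphorylation of the regulatory light chain by myosin light chain kinase turns the motor on, and myosin phosphatase turns it off. Differentiated vascular smooth muscle relies on the Myh11 heavy chain and on Myl9, whereas Myh9 (nonmuscle myosin IIA), Myh10 (IIB) and Myh14 (IIC) work in cell migration, cell shape and the contractile ring of dividing cells, with Myl12a and Myl12b as light chains.

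The 3 regulatory light chains share the site that the kinases phosphorylate. The 36 coding bases around that site are shown from the GENCODE M21 transcripts (GRCm38), because they show how alike the genes are at the letters that carry the switch. Capitals mark the neighbouring threonine and serine codons, codons 19 and 20 counted from the start codon. Each stretch lies within 1 coding exon: Myl9 at chr2:156778578-156778613 on the plus strand, Myl12a at chr17:70996812-70996847 and Myl12b at chr17:70977163-70977198, both on the minus strand.
Myl9: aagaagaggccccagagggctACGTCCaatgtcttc
Myl12a: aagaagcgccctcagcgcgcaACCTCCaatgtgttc
Myl12b: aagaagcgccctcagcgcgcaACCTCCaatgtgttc
The Myl12a and Myl12b stretches had 0 differing bases, and the Myl9 stretch differed from both at 8 of 36 bases. Over the whole coding sequence of 516 bases, Myl12a and Myl12b were 96.5% identical, against 85.7% for Myl9 with Myl12a and 86.4% for Myl9 with Myl12b. The heavy chains were less alike, from 68.2% for Myh10 with Myh14 to 75.3% for Myh11 with Myh9. Of the 75-base words in the Myl12a transcript, 3.44% also stood in Myl12b and 26.9% in a second gene model that carries the name Myl12b; of those in the Myl6 transcript, 32.2% stood in other annotated genes. The heavy chain transcripts shared at most 0.652% of such words, and Myl9 shared 0.

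In the KO, the smooth muscle chains Myh11 and Myl9, the essential light chain Myl6 and the nonmuscle heavy chain Myh10 fell, and the nonmuscle heavy chain Myh9 rose. The falls were 2.90-fold for Myh11, 3.0-fold for Myh10, 3.42-fold for Myl9 and 1.92-fold for Myl6, and the rise of Myh9 was 1.75-fold. The other 3 members, Myl12a, Myl12b and Myh14, did not pass the threshold, a limma adjusted p of 0.05 over the 15058 tested genes. Thus 4 of 8 members were lower, where 6.7% of all tested genes were lower, and 1 of 8 was higher, where 9.58% of all tested genes were higher. The median log2 fold change of the members was -0.75, against -0.02 over all tested genes. KO and WT values did not overlap in any of the 8 members, as in 62.8% of all tested genes. For Myh14 this rests on 7 normalized counts in the lower KO library against 6 in the higher WT library. The mean of Myh14 reached the filter only through KO replicate 1. With a minimum mean of 50, which left 7 members without Myh14, the median log2 fold change of the members was -0.97, against -0.04 over all tested genes. The members were chosen with earlier results of these data known, so the counts are a description.

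**Figure D1:**
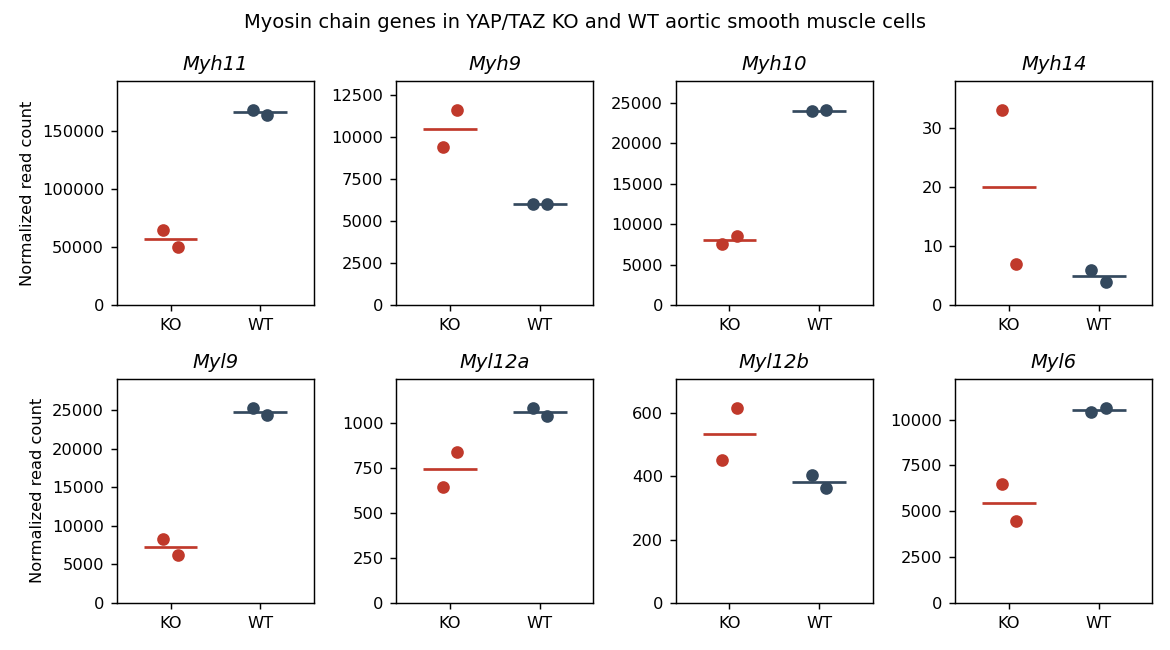
Normalized read counts (vertical axes, from 0, 1 scale per gene) of the 8 myosin chain genes in the KO and WT libraries; each point is 1 library and each line the group mean. The KO points of Myh11, Myh10, Myl9 and Myl6 lie well below the WT points, those of Myh9 lie above them, and Myh14 stays at or under 33 counts.

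Among the heavy chains, Myh11 (chromosome 16, 14194535 to 14291372, minus strand, GRCm38) is the smooth muscle form and a late marker of differentiated smooth muscle. Its normalized read counts were 64964 and 49813 in the KO libraries and 168117 and 164384 in the WT libraries. Both KO libraries were low and both WT libraries were high, and the KO libraries differed more from each other than the WT libraries did. The log2 fold change was -1.55 (SE 0.18, limma adjusted p = 0.0094, n = 2 per group).

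Myh10, the nonmuscle IIB heavy chain (chromosome 11, 68691559 to 68816632, plus strand), had 7517 and 8489 normalized counts in the KO libraries and 23986 and 24071 in the WT libraries. The fall was close in size to that of Myh11, at -1.59 on the log2 scale (SE 0.11, limma adjusted p = 0.0048). Among the KO libraries the order was the other way round, since replicate 2 was the higher one for Myh10 and the lower one for Myh11. The ratio of Myh11 to Myh10, both per kilobase of transcript, was 10.4 and 7.06 in the KO libraries and 8.43 and 8.22 in the WT libraries, so the KO values lay on both sides of the WT values.

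Myh9, the nonmuscle IIA heavy chain (chromosome 15, 77760587 to 77842175, minus strand), moved the other way. Its normalized counts were 9411 and 11583 in the KO libraries and 6029 and 5997 in the WT libraries, which put its log2 fold change at 0.80 (SE 0.13, limma adjusted p = 0.016). Both KO libraries were above both WT libraries. Per kilobase of transcript, the ratio of Myh9 to Myh10 was 1.31 and 1.42 in the KO libraries and 0.262 and 0.260 in the WT libraries. Myh9 was thus the higher of these nonmuscle heavy chains in both KO libraries and the lower one in both WT libraries. With the union of all annotated exons as the length, an alternative added after seeing the data, the ratio was 1.01 and 1.10 in the KO libraries and 0.203 and 0.202 in the WT libraries, so in the KO these genes were then nearly equal.

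Myh14, the nonmuscle IIC heavy chain (chromosome 7, 44605803 to 44670843, minus strand), was barely expressed. It had 33 and 7 normalized counts in the KO libraries and 6 and 4 in the WT libraries. KO replicate 1 stood apart from the other 3 libraries, and the log2 fold change, 1.48 (SE 0.89, limma adjusted p = 0.31), was within the spread between libraries. Its mean passed the filter of 10 normalized counts only through KO replicate 1.

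Of the light chains, Myl9 encodes the regulatory light chain of smooth muscle myosin (chromosome 2, 156775420 to 156781658, plus strand). Its normalized counts were 8253 and 6241 in the KO libraries and 25283 and 24344 in the WT libraries. This was the largest change in log2 terms among the 5 members that passed (log2 fold change -1.79, SE 0.16, limma adjusted p = 0.0062). KO replicate 2 was the lower KO library, as it was for Myh11.

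Myl12a (chromosome 17, 70993656 to 71002878, minus strand) and Myl12b (chromosome 17, 70973133 to 70990890, minus strand) are neighbouring genes for the regulatory light chains of nonmuscle myosin. Myl12a had 648 and 839 normalized counts in the KO libraries and 1086 and 1041 in the WT libraries, with a log2 fold change of -0.53 (95% interval from -0.90 to -0.15, limma adjusted p = 0.067). Myl12b had 452 and 615 in the KO libraries and 403 and 363 in the WT libraries, with a log2 fold change of 0.46 (95% interval from 0.01 to 0.91, limma adjusted p = 0.15). The 2 genes had opposite signs, although neither passed. Their per-kilobase ratio, Myl12b over Myl12a, was 0.630 and 0.663 in the KO libraries and 0.335 and 0.315 in the WT libraries, which do not overlap; with 2 libraries against 2, the exact two-sided permutation test gave p = 0.33, the smallest it allows. In GENCODE M21 the second gene model named Myl12b (ENSMUSG00000117098) covers 26.7% of the exon length of Myl12b and 13.8% of that of Myl12a, and how reads there were counted is not stated in the labels. Myom1, on the opposite strand, covers 6.16% of the exon length of Myl12a. Myom1 had 11618 and 10288 normalized counts in the KO libraries and 25906 and 21687 in the WT libraries. The strand setting of the counting is not stated, and the part of Myom1 reads in the Myl12a values was not tested.

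Myl6 encodes the essential light chain that smooth muscle and nonmuscle myosins share (chromosome 10, 128490860 to 128494145, minus strand). It had 6473 and 4479 normalized counts in the KO libraries and 10423 and 10637 in the WT libraries. Both KO libraries were lower, KO replicate 2 more so (log2 fold change -0.97, SE 0.18, limma adjusted p = 0.022). How reads that fit Myl6 and its copies equally well were counted is not stated in the labels. The 3 copies that share most words with it had few counts of their own, from 0 to 7 in the KO libraries and from 3 to 10 in the WT libraries.

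**Figure D2:**
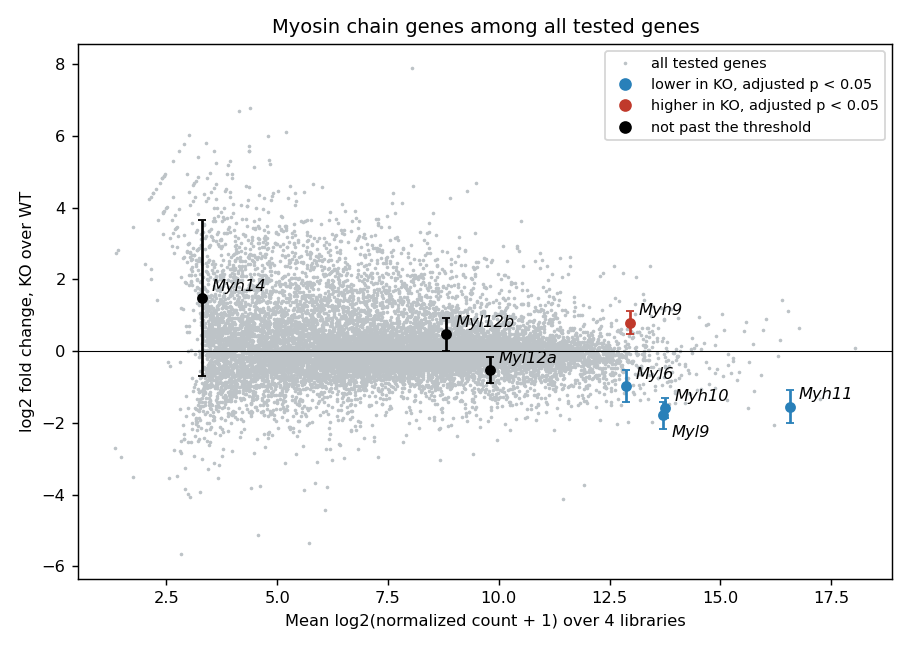
Log2 fold change of KO over WT (vertical axis) against the mean log2(normalized count + 1) over 4 libraries (horizontal axis) for all tested genes (grey) and the 8 myosin chain genes (coloured by call, bars show limma's 95% interval). Myh11, Myh10, Myl9 and Myl6 lie between -1.79 and -0.97, Myh9 lies at 0.80, and the interval of Myh14 runs from -0.70 to 3.66.

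Levels of different genes were compared per kilobase of the transcript with the longest coding sequence. In the WT libraries the order from high to low was Myh11, Myl9, Myl6, Myh10, Myh9, Myl12a, Myl12b and Myh14, the same in both. In KO replicate 1 it was Myh11, Myl6, Myl9, Myh9, Myh10, Myl12a, Myl12b and Myh14, and KO replicate 2 had this same order. Myl9 and Myl6, and likewise Myh10 and Myh9, thus stood in the other order. The first of these exchanges depended on the length used for Myl6, which is 692 bases for the transcript and 3187 bases for the union of exons. With the union, Myl9 was above Myl6 in all 4 libraries, with 7102 and 5371 for Myl9 and 2031 and 1405 for Myl6 in the KO, while Myh9 still stood above Myh10 in both KO libraries. The values that follow are again those per kilobase of transcript. Within each KO library Myl6 lay between Myh11 and Myl9. The levels of Myh11, Myl6 and Myl9 were 10072, 9354 and 7316 in KO replicate 1 and 7723, 6473 and 5533 in KO replicate 2. All of these were lower in KO replicate 2, so the range of Myl6 over the KO libraries overlapped those of Myh11 and Myl9. The differences between these genes were not tested. Other neighbours in the KO order, and all neighbours in the WT order, did not overlap. Myh11 ranked 27 and 30 among the 14911 genes with a length in the KO libraries, and 7 and 8 in the WT libraries. Myl9 ranked 39 and 45 in the KO libraries and 10 and 9 in the WT libraries, and Myh10 ranked 692 and 549 in the KO libraries and 131 and 134 in the WT libraries. Myh9 stood higher in the KO, with ranks of 469 and 330 in the KO libraries and 821 and 844 in the WT libraries.

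Myh9 held a larger share of the heavy chain transcripts in both KO libraries than in either WT library. Of the summed heavy chain level per kilobase, Myh11 made up 81.8% and 74.4% in the KO libraries and 87.0% and 86.7% in the WT libraries. Myh9 made up 10.3% and 15.0% in the KO libraries and 2.71% and 2.74% in the WT libraries. Myh10 made up 7.87% and 10.5% in the KO libraries and 10.3% and 10.6% in the WT libraries, so its share overlapped. The mean Myh11 share was 78.1% ± 5.2 in the KO and 86.8% ± 0.19 in the WT (SD, n = 2 each), a difference of -8.72 percentage points. The exact two-sided permutation test over libraries gave p = 0.33, the smallest p that 2 against 2 allows, so no share can pass 0.05 here. Without KO replicate 1 the difference was -12.4 points and without KO replicate 2 it was -5.03 points.

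Among the regulatory light chains, Myl9 remained the main transcript. It made up 93.1% and 88.5% of their summed level per kilobase in the KO libraries and 96.8% in each WT library, a difference of -6.03 points (exact two-sided permutation p = 0.33). The joint level of the 3 genes was 7862 and 6253 normalized counts per kilobase in the KO libraries and 23163 and 22288 in the WT libraries. The level of Myl6 was 9354 and 6473 in the KO libraries and 15062 and 15371 in the WT libraries. Essential over regulatory light chain transcripts therefore stood at 1.19 and 1.04 in the KO libraries and at 0.650 and 0.690 in the WT libraries. With the union of exons as the length it stood at 0.272 and 0.241 in the KO libraries and 0.147 and 0.156 in the WT libraries, so the level of this ratio depends on the length. Both KO libraries were the higher ones with either. The same lengths enter all 4 libraries, so the second length is no separate check of that direction. The summed heavy chains had 12312 and 10376 normalized counts per kilobase in the KO libraries and 29968 and 29396 in the WT libraries.

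**Figure D3:**
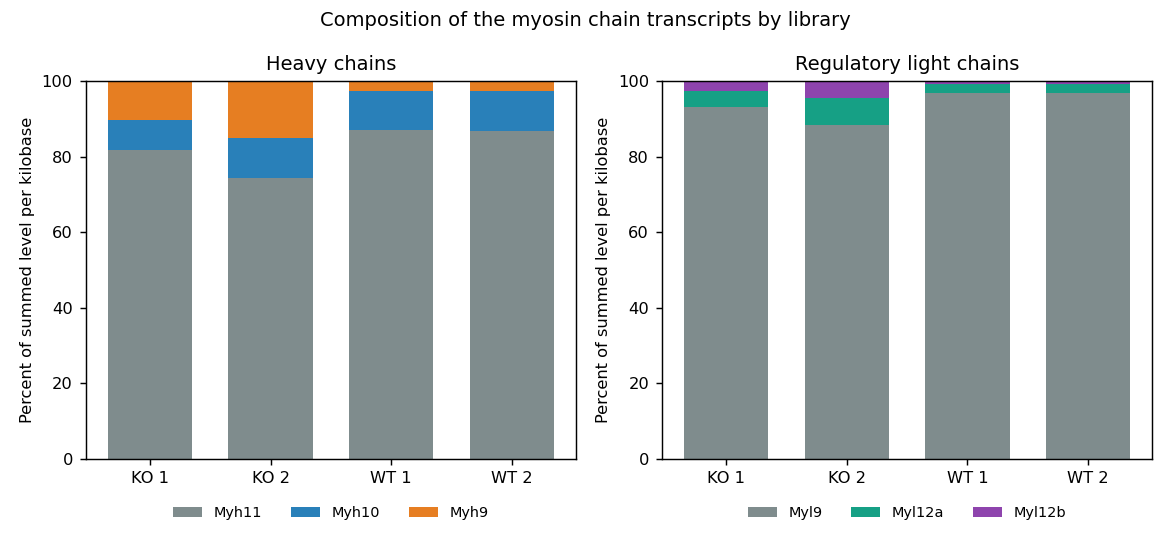
Percent of the summed level per kilobase (vertical axis) held by each heavy chain (left) and each regulatory light chain (right) in the 2 KO and 2 WT libraries; Myh14, at most 0.041%, is left out. The Myh9 segment is 10.3% and 15.0% in the KO bars and 2.71% and 2.74% in the WT bars, and Myl9 stays above 88% in every bar.

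The calls on the members depended on the full set of libraries. Without KO replicate 1, KO replicate 2 or WT replicate 1, limma called 0 genes of the whole table at an adjusted p under 0.05 (3813, 3242 and 2724 at an unadjusted p under 0.05), and so no member. Without WT replicate 2, Myh11, Myh10 and Myl9 still passed (limma adjusted p = 0.0498, 0.034 and 0.041), while Myh9 and Myl6 did not (0.095 and 0.13). Over the 13 other settings tried, the log2 fold change of Myh11 ran from -1.74 to -1.27 and that of Myh9 from 0.65 to 0.95, and no member changed its sign where it was tested. The limma adjusted p over those settings ran from 0.0031 to 0.20 for Myh11, from 0.0014 to 0.20 for Myh10 and Myl9, from 0.0083 to 0.20 for Myh9 and from 0.0099 to 0.20 for Myl6.

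The targeted genes were read as a check of the labels. Yap1 had 947 and 962 normalized counts in the KO libraries and 1966 and 1877 in the WT libraries (log2 fold change -1.01, limma adjusted p = 0.0080), and Wwtr1, which encodes TAZ, had 2848 and 2466 in the KO libraries and 3423 and 4016 in the WT libraries (-0.48, limma adjusted p = 0.055). Normalized counts summed to 13861333 and 13279332 in the KO libraries and 14235444 and 14519178 in the WT libraries. The spacing of the rounded values put the size factors near 0.887 and 0.890 in the KO libraries and 1.10 and 1.16 in the WT libraries, so the KO libraries were the shallower ones. Markers of other cells were counted in every library and moved with the groups, although the labels name smooth muscle cells. The members' values may thus not come from smooth muscle cells alone. For the marker counts that follow, 9.58% of all tested genes rose and 6.7% fell. Of 16 macrophage markers 15 rose, and their summed normalized counts were 14130 and 19656 in the KO libraries and 1354 and 3726 in the WT libraries. Fcgr1, which rose, and Aif1, which did not pass, reached the filter only through the KO libraries (WT means 7.5 and 3.5). With a minimum mean of 50, 14 of 14 macrophage markers rose, where 1267 of 11624 tested genes rose. Of 10 fibroblast markers 2 rose, or 3 to 6 under 3 other scalings, and their sums were 179729 and 190015 in the KO libraries and 46447 and 107399 in the WT libraries. Of 10 endothelial markers 5 rose, with sums of 11688 and 9867 in the KO libraries and 3600 and 6028 in the WT libraries. Of 10 adipocyte markers 7 rose and 1 fell, with sums of 16851 and 14804 in the KO libraries and 9341 and 9906 in the WT libraries. Plin4, the 1 that fell, held 4436 and 3622 of these counts in the KO libraries and 7904 and 5710 in the WT libraries. The WT sums were thus mostly Plin4. Of 6 Schwann cell markers 1 rose, with sums of 2986 and 2992 in the KO libraries and 1994 and 2747 in the WT libraries, and 0 of 8 lymphocyte markers reached the filter. Of the 11 smooth muscle markers other than Myh11, 8 fell and the median log2 fold change was -0.98; with Myh11, the list summed to 231041 and 178221 in the KO libraries and 579570 and 537614 in the WT libraries. In such bulk samples fewer cells of a type and less RNA per cell cannot be told apart. Macrophages express Myh9, Myl6 and Myl12a, and the part of these cells in the members' values was not tested.

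Of 27 genes that set the phosphorylation of the regulatory light chains, 26 were tested. Of these, 9 fell, 2 rose and 15 did not pass, where 6.7% of all tested genes fell and 9.58% rose. The median log2 fold change of the 26 was -0.27, against -0.02 over all tested genes. Among the kinases, Mylk4, of the myosin light chain kinase family, had 1090 and 1023 normalized counts in the KO libraries and 14786 and 13526 in the WT libraries. It was the largest fall of the list (log2 fold change -3.74, SE 0.10, limma adjusted p = 0.0005). Mylk, the myosin light chain kinase of smooth muscle, named here because of its values, had a log2 fold change of -1.19 (SE 0.18).

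On the phosphatase side, Ppp1r14a, which encodes the inhibitor CPI-17, had 529 and 434 normalized counts in the KO libraries and 1688 and 1718 in the WT libraries (log2 fold change -1.83, SE 0.13, limma adjusted p = 0.0048). Ppp1r12b, a targeting subunit of myosin phosphatase, had 9312 and 7438 in the KO libraries and 25500 and 21469 in the WT libraries (-1.49, SE 0.16). Ppp1r12a, the subunit with the highest level per kilobase of the list, stood at -0.63 on the log2 scale (SE 0.13, limma adjusted p = 0.030). Kinases, an inhibitor and subunits of the phosphatase were thus all among the genes that fell. The 2 that rose, also named because of their values, were Cit, the citron kinase of cytokinesis (log2 fold change 2.84, SE 0.42), and Ppp1r14b, another phosphatase inhibitor (1.56, SE 0.36). Without WT replicate 2, 4 genes of the list passed as lower and 1 as higher, and 0 passed when any other library was left out. Over 3 other scalings 8 to 10 were lower and 2 or 3 higher.

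Of 25 genes for filament assembly and actomyosin partners, 9 fell, 5 rose and 11 did not pass, with a median log2 fold change of -0.15. Over all tested genes 6.7% fell and 9.58% rose. Acta2 and Anln, among those that fell, are also counted with the smooth muscle markers and with the mitosis genes, respectively. Acta2, smooth muscle α-actin, had 41201 and 33544 normalized counts in the KO libraries and 157904 and 150117 in the WT libraries (log2 fold change -2.05, SE 0.16). The tropomyosin genes Tpm1 and Tpm2, whose proteins lie along the actin filament, fell with log2 fold changes of -1.45 and -0.77. Actb, the cytoplasmic β-actin, was at 48169 and 44739 in the KO libraries and 61551 and 53652 in the WT libraries and did not pass (-0.31, limma adjusted p = 0.20). The 5 that rose, again named because of their values, were Lima1 (1.33), Tpm4 (1.02), S100a4 (0.95), Actg2 (0.60) and Actg1 (0.52). S100a4 encodes a calcium-binding protein that binds the Myh9 heavy chain and promotes filament disassembly; a second gene model on its strand covers 51.7% of its exon length. Without WT replicate 2, 4 of the list passed as lower and 1 as higher, and 0 passed when any other library was left out.

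Nonmuscle myosin also drives cytokinesis, and most listed genes of mitosis and the contractile ring rose in the same libraries. Here 13 of 16 rose and 1 fell, where 9.58% of all tested genes rose and 6.7% fell. The median was 2.55 on the log2 scale. Aurkb and Cdk1, among those that rose and named because of their values, reached the filter only through the KO libraries (WT means 8 and 9.5). With a minimum mean of 50, 10 of 11 rose and 1 fell, where 1267 of 11624 tested genes rose and 1030 fell. Ect2, an exchange factor that acts at the equator of dividing cells, had 211 and 244 normalized counts in the KO libraries and 48 and 60 in the WT libraries (log2 fold change 2.06, SE 0.24). Prc1, which bundles the microtubules of the spindle midzone, had a log2 fold change of 1.83 and Top2a, a topoisomerase of dividing cells, one of 3.29. Anln, which encodes anillin, the scaffold that links actin, septins and nonmuscle myosin in the ring, was the 1 that fell, with 702 and 749 normalized counts in the KO libraries and 2133 and 1796 in the WT libraries (-1.43, SE 0.13, limma adjusted p = 0.0062). The summed counts of the list were 5436 and 7938 in the KO libraries and 2822 and 3008 in the WT libraries, so KO replicate 2 was the higher KO library. The part of dividing cells in the members' values was not tested. Without WT replicate 2, 8 of the list passed as higher and 1 as lower, and 0 passed when any other library was left out.

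Other myosins moved in both directions or were low. Of 20 tested unconventional myosins of 24 listed, 6 rose, 3 fell and 11 did not pass, with a median log2 fold change of 0.16. Among all tested genes 9.58% rose and 6.7% fell. Myo18b had 1770 and 1764 normalized counts in the KO libraries and 713 and 808 in the WT libraries (1.22, SE 0.11), and the vesicle motor Myo5a had a log2 fold change of 1.23. Myo1g, a motor of blood cells, had 167 in each KO library and 7 and 23 in the WT libraries (3.60). Myo9b had 2520 and 2916 in the KO libraries and 6195 and 5051 in the WT libraries (-1.04, SE 0.14). Myo1c, the highest of them per kilobase, did not pass (-0.33, limma adjusted p = 0.078). Without WT replicate 2, 5 unconventional myosins passed as higher and 1 as lower, and 0 passed when any other library was left out.

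Striated muscle and other class II myosin chains outside the 8 members contributed little. Only 6 of 18 reached a mean of 10 counts and none passed. Their summed normalized counts, 409 and 194 in the KO libraries and 310 and 301 in the WT libraries, compare with 97751 and 82066 in the KO libraries and 235333 and 230841 in the WT libraries for the 8 smooth muscle and nonmuscle chains. Myh7, the slow muscle heavy chain, had 156 and 0 in the KO libraries and 79 and 46 in the WT libraries. Myh6, a cardiac heavy chain, had 33 and 20 in the KO libraries and 77 and 29 in the WT libraries. Myh1 was listed at 0 in both KO libraries and had 2 and 42 in the WT libraries. Myl1 had 47 and 53 in the KO libraries and 17 and 29 in the WT libraries (log2 fold change 1.13, limma adjusted p = 0.13), while Myl4 (-0.22) and Myl6b (0.19) had the highest levels of the list per kilobase.

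The genes whose profile was most like that of Myh11 were found among 9486 other named genes with a mean of at least 100 normalized counts, by the Euclidean distance between log2 profiles centred over the 4 libraries. They were Ccdc3 (distance 0.067), Mtus2 (0.089), St3gal5 (0.116), Klhl30 (0.124) and Kcnab1 (0.128), with log2 fold changes from -1.66 to -1.42. An opposite-strand gene covers 69.1% of the exon length of Ccdc3. Ccdc3 had 1090 and 867 normalized counts in the KO libraries and 3002 and 2905 in the WT libraries. The profile of Myl9 was closest to Wtip (0.069), Pawr (0.092), Ppp1r14a (0.108), Klhl30 (0.138) and Ntf3 (0.176). Among the members, Myl9 stood at rank 32 by likeness to Myh11, Myh10 at 126, Myl6 at 267, Myl12a at 1467, Myl12b at 7937 and Myh9 at 8385. These distances rest on 4 libraries, 2 per group, and are a description.

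Promoter windows were taken from RefSeq (GRCm38.p6, 250 bases before to 50 after the annotated start). Windows were found for 7 of the 8 members, all but Myh11, with 2 for Myl6. They were searched on both strands for the CArG box, the binding sequence of serum response factor, which recruits myocardin to smooth muscle genes, and for CATTCC, the core of the site bound by TEAD, the DNA-binding partners of YAP and TAZ. The 3 windows below are those of members that fell and that hold a match, with the matches in capitals. They lie at chr2:156775214-156775513 (plus strand) for Myl9, chr10:128492960-128493259 (minus strand) for Myl6 and chr11:68691665-68691964 (plus strand) for Myh10.
Myl9: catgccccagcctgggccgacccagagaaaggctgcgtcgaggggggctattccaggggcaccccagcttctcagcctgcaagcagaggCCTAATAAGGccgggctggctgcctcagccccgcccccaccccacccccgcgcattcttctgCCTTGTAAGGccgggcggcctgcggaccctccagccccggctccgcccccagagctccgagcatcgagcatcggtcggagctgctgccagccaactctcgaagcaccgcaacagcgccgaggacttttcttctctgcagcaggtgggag
Myl6: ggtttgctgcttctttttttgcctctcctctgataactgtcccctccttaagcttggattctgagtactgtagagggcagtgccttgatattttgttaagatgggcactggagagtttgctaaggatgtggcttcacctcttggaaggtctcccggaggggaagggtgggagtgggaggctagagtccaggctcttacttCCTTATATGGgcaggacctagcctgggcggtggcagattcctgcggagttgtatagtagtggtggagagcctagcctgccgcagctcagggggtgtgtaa
Myh10: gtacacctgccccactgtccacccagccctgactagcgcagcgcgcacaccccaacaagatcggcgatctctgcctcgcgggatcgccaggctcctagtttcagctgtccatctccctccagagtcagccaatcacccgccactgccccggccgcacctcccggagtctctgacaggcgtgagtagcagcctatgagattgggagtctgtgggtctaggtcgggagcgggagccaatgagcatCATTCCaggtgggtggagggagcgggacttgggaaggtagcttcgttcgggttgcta
A full CArG box began 161 bases before the start in Myl9 and 50 bases before it in this Myl6 window, and 1.63% of 32851 promoter windows of that length held one. Myl9 held a further match with 1 G or C in the A/T run, 99 bases before the start, and so did Myl12a, 18 bases before its start; 9.98% of all windows held a match of that looser kind. CATTCC was in the windows of Myh10, 7 bases before the start, and Myl12a, and in 14.7% of all windows. The windows of Myh9, Myl12b and Myh14 and the other Myl6 window held neither motif. Myh11 had no window and was not searched. A match describes these letters and is not evidence of binding.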

How the data were processed

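The labels' protocols describe column-purified total RNA, removal of ribosomal RNA and a strand-preserving library kit. Tools named in the submitters' processing notes, with no roles, are STAR 2.5.2b, featureCounts 1.5.1 from Subread, DESeq2 1.14.1 and FastQC, on mm10/GRCm38; the annotation release and strand setting of the counting are not stated there. The authors deposited 1 table of normalized read counts rounded to whole numbers, which is handled here as a score and not as raw counts. Size factors were estimated from the spacing of the rounded values.

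The tests used log2(value + 1), for all genes whose mean over the 4 libraries reached 10. A model with the group as its only term was fitted with limma 3.58.1 (R 4.3.3) and an intensity trend. P-values were two-sided and adjusted by Benjamini-Hochberg over 15058 genes, with a threshold of 0.05. Plain folds are ratios of group means; log2 fold changes understate changes of low genes. The fit was also run on simulated counts, with changes set in advance and the same spread setting in both groups. The outcome of that run is not used here as support for the calls. Levels per kilobase use the GENCODE M21 transcript with the longest coding sequence. Replicate numbers were not used as pairs.

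The members, gene lists and rules were chosen with earlier results of these data known. The lists share genes, so their counts are not independent of each other. Acta2, Cnn1, Smtn and Synpo2 are both partners and smooth muscle markers, and Anln is both a partner and a cytokinesis gene. Mylk is in the phosphorylation and smooth muscle lists, and Cit is in the phosphorylation and cytokinesis lists. All members are named, and from each pathway list (phosphorylation, partners, cytokinesis, unconventional and striated myosins; not the cell type markers) the 4 genes with the smallest p and the 2 with the highest level per kilobase; exceptions are marked, and 1 gene that the rule names is not reported here. Promoter sequences are from RefSeq.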

Additional observations from a re-analysis of the deposited data

How the results depend on the processing

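The counts of 4 lower and 1 higher members held with a minimum mean of 50, pseudocounts of 0.5 and 10, the same total in every library, quantile normalization, scaling by the median of ratios and the replicate block, which left 4 lower and 1 higher members and 3036 genes of the whole table against 2452. The labels do not say that a replicate number marks a shared animal or day, and the replicate 1 minus replicate 2 deviations of KO and WT correlated at 0.118 over genes, so the samples are not treated as paired. Without the filter on low values, limma called 0 members lower, 0 higher and 0 genes in all (5472 at an unadjusted p under 0.05), and without the intensity trend also 0, 0 and 0 (4274); the cause was not tested. When 1 library was left out, 0 to 3 members passed as lower, 0 as higher, and 0 to 915 genes in all. The Myl9 share difference was -9.82 points from counts not divided by length, against -6.03 per kilobase. With the union of all exons as length, an alternative added after seeing the data, it was -4.34 points, and the Myh11 share difference was -6.38 points. With 1 library left out, the Myh11 share difference ran from -12.4 to -5.03 points and that of Myl9 from -8.31 to -3.74 points. Quantile normalization put the median log2 fold change of all genes at -0.11. It moved Myh9 from 0.80 to 0.94 and Myh11 from -1.55 to -1.27, the smallest fall of Myh11 over the 13 settings. Of the fibroblast markers, 7 of 10 rose under the replicate block or without WT replicate 2, against 2. The 2 libraries per group and the shallower KO libraries limit the precision most for Myh14.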
